A study of Mus musculus with 26 samples.

Results

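Livers of Fxr-/- Shp-/- mice were compared with wild-type livers across all genes, with attention to pathways other than drug metabolism, the Sult2a sulfotransferases and the major urinary proteins. The 6 libraries were taken as the 3 labelled Wild Type and the 3 labelled Fxr-/- Shp-/- among 26 RNA-seq libraries of mouse liver or hepatocytes, and 13473 of the 47643 genes in the count table had enough reads to be tested. Both groups were C57BL/6J mice of 12 weeks, fed ad libitum, and RNA came from whole liver. The knockout lacks Fxr (gene Nr1h4) and Shp (gene Nr0b2), and no Cre driver or treatment is named for it. The other 20 libraries of the series came from 4 further experiments and are used for levels beside this comparison. Apart from the hepatectomy experiment, these came from C57BL/6J mice. Wild-type mice aged 8 weeks and given corn oil or TCPOBOP provided livers (2 libraries each, fed ad libitum). Wild-type mice aged 16 weeks, on chow or a 60% high fat diet, provided hepatocytes (2 each, fasted for 10 hours). Mice labelled fl/fl Fxr fl/fl Shp, aged 10 to 12 weeks, provided livers on chow or a cholic acid diet. The floxed groups had 3 libraries each and were fasted for 8 to 10 hours. Corn oil, sham, chow hepatocyte and floxed chow libraries are the 10 other controls. Only the hepatectomy experiment entered a test, with C3H/HeN livers of mice aged 8 to 10 weeks, also fed ad libitum, from a sham group at 0 hours and a group 48 hours after partial hepatectomy (PHx), 3 libraries each. The labels number the libraries of a group and do not say that each came from its own mouse, so p-values measure the spread between these samples.

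FXR is a nuclear receptor activated by bile acids. In hepatocytes it switches on bile acid export, and through its target SHP, a corepressor without a DNA-binding domain of its own, it restrains bile acid synthesis. Both proteins are also known for effects on lipid and glucose metabolism, and the liver without both is used as a model of bile acid overload.

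Gene reads ranged from 16614444 to 19725936 per library for wild type, against 19655218 to 22606249 for the knockout. Reads that aligned to more than 1 place took 43.2 to 44.1% of the wild-type reads, 25.5 to 26.9% of the knockout reads and 16.6 to 25.1% in the other 20 libraries. This library difference runs with genotype and cannot be told apart from it. Its part in the fold changes and calls of the knockout against wild type was not tested. Knockout replicate 3 stood apart from the other knockout libraries, with a correlation of log2 CPM (read counts scaled to a common library size, here with edgeR's TMM factors) of 0.979 with each of them against 0.991 between replicates 1 and 2. Hepatocyte markers were high in all 6 libraries, and albumin (Alb) had a log2 fold change of -0.43 ± 0.19 that was not called. Scaled over all 26 libraries, Xist reached at most 0.0516 CPM among wild-type and 0.0441 CPM among knockout libraries. The Y-linked Ddx3y lay between 45.8 and 77.0 CPM for wild type and between 49.9 and 60.6 CPM for the knockout.

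The targeted genes were read first. Nr0b2 was at 15.04, 28.2 and 13.7 CPM in wild-type replicates 1 to 3 and at 0.595, 1.16 and 1.68 CPM in knockout replicates 1 to 3. All knockout values lay below all wild-type values, and the log2 fold change was -4.03 ± 0.39 (± SE here and below, 3 libraries a group; adjusted p = 0.000107, edgeR quasi-likelihood test with Benjamini-Hochberg adjustment over all tested genes). Nr1h4 was at 153, 161 and 117 CPM in wild-type replicates 1 to 3 and at 65.0, 55.7 and 58.5 CPM in knockout replicates 1 to 3. Reads on Nr1h4 thus remained in the knockout, at a log2 fold change of -1.27 ± 0.13 (adjusted p = 0.000149), and a gene count does not show which exons they came from. Nr1h4 lies at chr10:89454234-89533585 and Nr0b2 at chr4:133553376-133556536 (GRCm38). Within 10 Mb of each start, 37.0% of 184 and 41.1% of 236 other tested genes were called, against 40.4% of all tested genes. Within 5 Mb the shares were 42.4% of 59 and 47.3% of 146. Called genes with an absolute log2 fold change of at least 2 made up 10.2% and 6.16% within 5 Mb. Within 10 Mb they made up 5.43% and 5.51%, against 5.19% of all tested genes.

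A gene was called raised or lowered at an adjusted p under 0.05. That held for 5441 of 13473 genes (40.4%), with 2823 raised (21%) and 2618 lowered (19.4%), and the median log2 fold change over all tested genes was -0.01. Without knockout replicate 3, 6024 genes were called, 3153 raised and 2871 lowered. The 3 values of each group did not overlap for 53.4% of tested genes. These shares are the background against which the counts of each gene list below are to be read. A gene low in wild type can pass the read minimum through knockout reads alone, which favours raised calls in lists of low genes. Of 38 lists, 28 are plotted, and the sterol, mitosis, matrix and fetal lists have the highest medians while the amino acid and hepatocyte identity lists lie below 0.

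**Figure D1:**
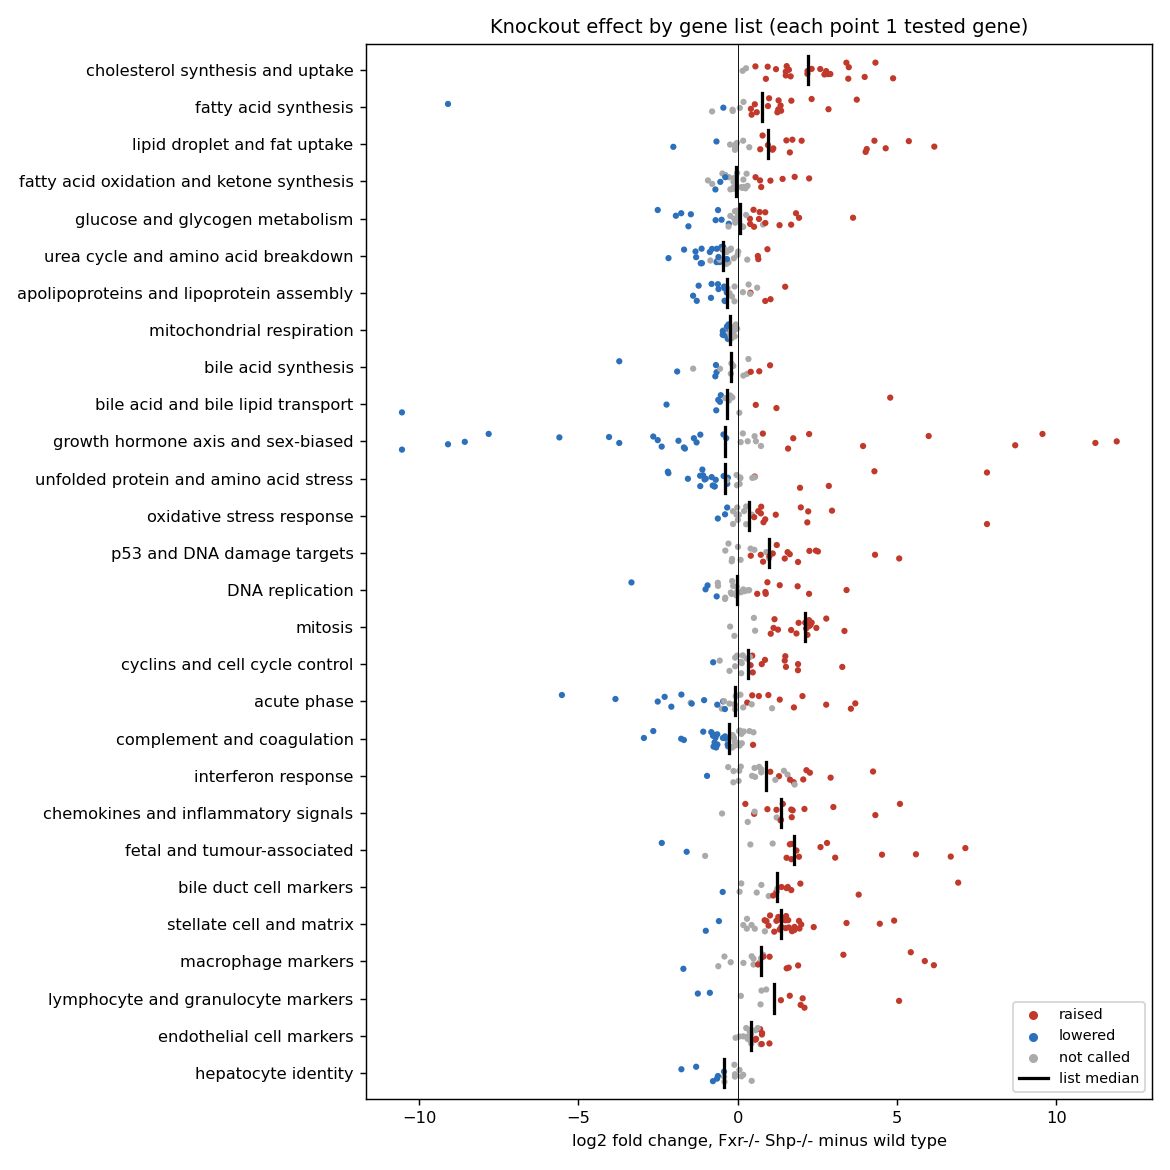
Log2 fold change, Fxr-/- Shp-/- minus wild type (x axis), of each tested member of 28 gene lists (rows), with raised genes in red, lowered genes in blue, genes not called in grey and the median of each list as a black bar. The cholesterol list has a median of 2.19 with 23 of 25 members raised, and the urea cycle and amino acid list a median of -0.47 with 19 of 38 lowered.

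Bile acid genes moved in both directions. Of 14 tested genes of bile acid and bile lipid transport, 3 were raised and 6 lowered (median log2 fold change -0.33). Abcb11, the bile salt export pump and a classical FXR target, lies at chr2:69238282-69342616 on the minus strand. The 250 bases before its start hold 1 match to GGNCANTGNCC, an inverted repeat of the kind FXR is known to bind, whose first base lies 62 bases before the start. It is printed because the pump is the transporter most closely tied to FXR. The sequence, from RefSeq on GRCm38.p6 at chr2:69342617-69342866, minus strand and 5′ to 3′, has the match in capitals:
Abcb11: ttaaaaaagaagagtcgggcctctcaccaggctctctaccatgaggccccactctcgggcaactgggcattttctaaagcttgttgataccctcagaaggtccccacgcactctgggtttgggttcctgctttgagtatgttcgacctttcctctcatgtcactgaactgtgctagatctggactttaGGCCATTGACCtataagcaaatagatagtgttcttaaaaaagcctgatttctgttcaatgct
The motif reads the same on both strands, and 180 of 27025 genes with a promoter in the table (0.666%) hold it in these 250 bases, as do 2 of the 14 transport genes found there. Abcb11 was at 383, 397 and 459 CPM in wild-type replicates 1 to 3 and at 97.6, 108 and 57.8 CPM in knockout replicates 1 to 3. Knockout replicate 3 was the lowest of all 6, and no values overlapped between groups (log2 fold change -2.23 ± 0.21). Abcb4, which moves phospholipid into bile, fell by 0.61 ± 0.11 and Atp8b1, a phospholipid flippase of the canalicular membrane, by 0.67 ± 0.12.

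Uptake carriers moved in both directions. Slco1a1 was at 243, 324 and 265 CPM in wild-type replicates 1 to 3 and at 0.457, 0.0465 and 0.0431 CPM in knockout replicates 1 to 3. Slco1a1, an uptake carrier for organic anions that is known to be higher in male liver, had the largest fall by the naming rule, at a log2 fold change of -10.54 ± 0.38 (adjusted p = 4.79e-07). Slc10a1, the main sodium-dependent bile acid importer, had overlapping groups (-0.27 ± 0.15, adjusted p = 0.166). Without knockout replicate 3, its fall passed the test (adjusted p = 0.00263). Slco1a4, a relative of Slco1a1, rose by 1.22 ± 0.12 and Abcc4, a basolateral pump for conjugated bile acids, by 4.79 ± 0.34. Slc51a and Slc51b, the subunits of the basolateral bile acid exporter, had too few reads to be tested.

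Among 16 synthesis genes, 3 were raised and 5 lowered. Cyp7b1, the oxysterol hydroxylase of the alternative pathway, was at 216 to 299 CPM in wild type against 16.7 to 21.7 CPM in the knockout, a log2 fold change of -3.72 ± 0.16 (adjusted p = 1.53e-06). Cyp39a1, another oxysterol hydroxylase, fell by 1.90 ± 0.16, and Baat, which conjugates bile acids to taurine, by 0.70 ± 0.12. Cyp7a1, the rate-limiting enzyme of the classical pathway, rose by 1.02 ± 0.17, a call that was lost in a fit of all 26 libraries that shares a single estimate of spread (adjusted p = 0.277). Cyp8b1, which makes the precursor of cholic acid, was at 0.29 ± 0.13 (adjusted p = 0.0999) and passed the test without knockout replicate 3 (adjusted p = 0.0389). The list of bile acid signalling had 1 raised and 6 lowered members of 9. The hepatocyte receptor for intestinal FGF15 was lower in both parts, with Klb at -0.67 ± 0.11 and Fgfr4 at -0.47 ± 0.15, and the hormone Fgf21 was higher at 1.74 ± 0.31. Fgf21 levels were low throughout, at most 2.74 CPM. The bile acid receptors Gpbar1 and Vdr and the hormone Fgf15 did not reach the read minimum.

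Genes of cholesterol synthesis and uptake rose almost as a block. Of 25 tested genes, 23 were raised, none was lowered, and the median log2 fold change was 2.19. Tm7sf2 (0.15) and Ebp (0.26), enzymes of late sterol synthesis, did not pass the test, and the intestinal sterol transporter Npc1l1 had too few reads. Sqle was at 2.85, 2.59 and 3.14 CPM in wild-type replicates 1 to 3 and at 90.9, 105 and 57.4 CPM in knockout replicates 1 to 3. Squalene epoxidase, at chr15:59315077-59331192, is a control point of the pathway, and its groups lay far apart, with knockout replicate 3 the lowest of the knockout libraries. Its log2 fold change was 4.88 ± 0.25 (adjusted p = 3.14e-06).

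Members from the mevalonate steps to sterol formation rose. In the mevalonate steps, Hmgcs1 rose by 2.59 ± 0.31, Mvd by 3.41 ± 0.37, Idi1 by 4.33 ± 0.34 and Fdps by 3.99 ± 0.18. Idi1 was at 0.537, 0.886 and 0.967 CPM in wild-type replicates 1 to 3 and at 18.2, 19.5 and 10.0 CPM in knockout replicates 1 to 3. Idi1, an isomerase of the path, had groups far apart, with knockout replicate 3 the lowest of its group. Sterol-forming steps gave 3.49 ± 0.27 for Msmo1 and 3.47 ± 0.15 for Cyp51, both of which act in removing methyl groups from the sterol ring. Srebf2, the transcription factor that drives these genes when sterols are low, rose by only 0.56 ± 0.17. Leaving out each library in turn kept 22 to 24 genes raised.

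Promoters of sterol genes are known to pair sterol response elements with CCAAT boxes bound by NF-Y. The letters CCAAT, in either strand as CCAAT or ATTGG, were found in 17 of the 18 list members with a promoter in the RefSeq table and in 10133 of all 27025 (37.5%), over the 250 bases before the start. They are not particular to this list. Promoters of mitosis (20 of 27), fatty acid synthesis (11 of 17), replication (15 of 25) and bile acid transport genes (6 of 14) held them too. The classical element TCACCCCAC, or GTGGGGTGA on the other strand, was found in 1 of the 18 and in 150 of all (0.555%). A match is a description of letters and not a bound site. For the 3 raised members with the largest log2 fold changes among those with a single promoter in the table and a CCAAT box in it, the 250 bases before the start are shown 5′ to 3′ on the gene's strand (GRCm38.p6), with each CCAAT box in capitals. They are Idi1 at chr13:8885356-8885605 (plus strand), Msmo1 at chr8:64733579-64733828 (minus strand) and Cyp51 at chr5:4104698-4104947 (minus strand):
Idi1: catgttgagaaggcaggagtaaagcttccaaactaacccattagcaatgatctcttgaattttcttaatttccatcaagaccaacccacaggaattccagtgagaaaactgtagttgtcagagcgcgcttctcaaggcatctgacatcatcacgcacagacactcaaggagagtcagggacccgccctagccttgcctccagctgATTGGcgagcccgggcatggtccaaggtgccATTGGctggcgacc
Msmo1: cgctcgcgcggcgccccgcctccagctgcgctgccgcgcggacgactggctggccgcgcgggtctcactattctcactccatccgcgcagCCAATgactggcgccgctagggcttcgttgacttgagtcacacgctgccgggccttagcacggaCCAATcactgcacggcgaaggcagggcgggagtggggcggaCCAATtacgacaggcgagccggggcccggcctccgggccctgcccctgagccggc
Cyp51: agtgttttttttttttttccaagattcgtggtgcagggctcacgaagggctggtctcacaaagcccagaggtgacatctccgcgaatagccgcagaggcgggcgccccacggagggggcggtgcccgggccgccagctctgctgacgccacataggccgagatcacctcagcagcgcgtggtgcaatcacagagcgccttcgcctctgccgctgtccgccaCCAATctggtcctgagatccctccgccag
Msmo1 has 3 boxes, Idi1 has 2 and Cyp51 has 1, and these genes were at a log2 fold change of 3.49, 4.33 and 3.47.

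The level of the list in the other experiments bears on how this rise reads. Scaled over all 26 libraries, its 26 genes summed to 1229 to 1307 CPM in wild type against 4276 to 5699 CPM in the knockout. Other control livers gave 5242 to 5589 CPM (corn oil), 5063 to 5757 CPM (sham) and 1872 to 5902 CPM (floxed mice on chow), and chow-fed hepatocytes 2895 to 3019 CPM. For 22 of 25 tested genes every wild-type library lay below all 10 control libraries of the other experiments, against 6.29% of all tested genes. Every knockout library lay above those 10 for 2 of 25, against 15.4% of all tested genes. By the summed level the wild-type livers of this comparison were the lowest of the control groups. Age, and for some controls strain, feeding state or cell preparation, differ between the experiments, and these cannot be told apart. The 6 libraries also differ from the other 20 in reads of processed pseudogenes, and wild type in its share of reads aligned to several places, and the part of this in the levels across experiments was not tested.

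**Figure D2:**
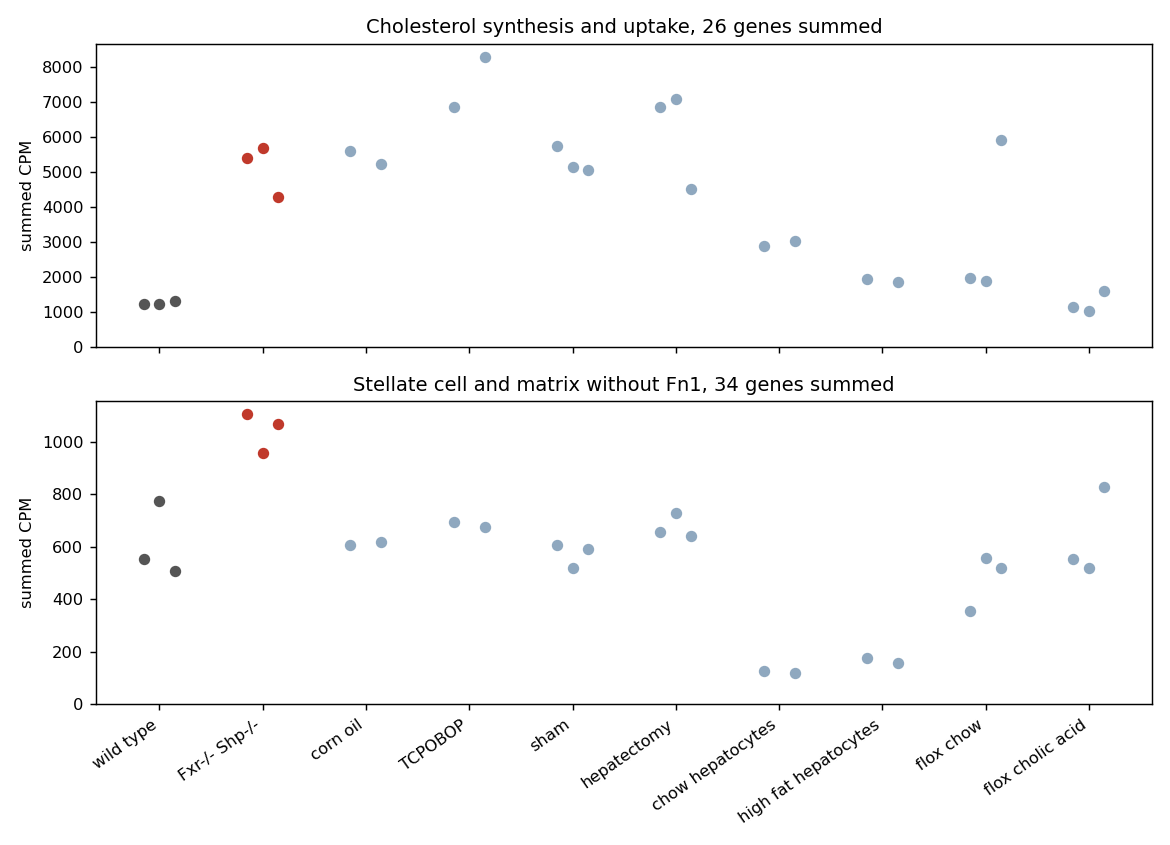
Summed CPM (y axes) of the cholesterol list (top, 26 genes) and of the stellate cell and matrix list without Fn1 (bottom, 34 genes) in every library of the series, 1 point per library, by group (x axis). The wild-type libraries sit between 1229 and 1307 in the top panel, below the other control groups, and the knockout libraries sit between 959 and 1105 in the bottom panel, above every other library.

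Fatty acid synthesis rose as well, though less uniformly. Of 22 tested genes, 15 were raised and 2 lowered, with a median log2 fold change of 0.77. Scaled over all 26 libraries, the list summed to 2742 to 3073 CPM in wild type and 8033 to 9901 CPM in the knockout. Other controls gave 8599 to 15090 CPM (corn oil), 24600 to 33150 CPM (sham), 8268 to 14410 CPM (floxed mice on chow) and 7806 to 8446 CPM (chow-fed hepatocytes). By this sum wild type was the lowest control group, and the knockout lay within the range of the other controls. The cause was not tested. Fasn was at 47.0, 45.0 and 49.7 CPM in wild-type replicates 1 to 3 and at 350.1, 393 and 280.2 CPM in knockout replicates 1 to 3. Fatty acid synthase, at chr11:120805846-120824547, had groups well apart and a log2 fold change of 2.85 ± 0.14. Scd1 was at 461, 536 and 354 CPM in wild-type replicates 1 to 3 and at 7095, 4973 and 5968 CPM in knockout replicates 1 to 3. Stearoyl-CoA desaturase, at chr19:44394455-44407879, puts the double bond into newly made fat, and rose by 3.74 ± 0.20. Elovl6, which lengthens palmitate, rose by 2.32 ± 0.25, Acaca, the carboxylase that commits carbon to fat, by 1.36 ± 0.12, and Srebf1, the main regulator, by 0.95 ± 0.15. Mlxipl, the carbohydrate-responsive regulator, was at -0.16 ± 0.25, and Acly, which supplies acetyl-CoA, at 0.18 ± 0.17, and neither passed the test. The falls were Agpat2 (-0.45 ± 0.10) and Elovl3 (-9.10 ± 0.41), an elongase known to be higher in male liver.

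Fat uptake and storage genes included some of the steepest rises. Of 25 tested genes, 15 were raised and 2 lowered (median log2 fold change 0.95). Without knockout replicate 3 the median was 0.61, with 15 raised and 1 lowered. Cd36 was at 9.29, 13.7 and 14.4 CPM in wild-type replicates 1 to 3 and at 301, 277 and 355 CPM in knockout replicates 1 to 3. Cd36, a fatty acid translocase at chr5:17781690-17888801, rose by 4.65 ± 0.19 (adjusted p = 1.01e-06) with every knockout value far above wild type. Vldlr, a lipoprotein receptor, rose by 4.29 ± 0.20, Mogat1 and Mogat2, which build diacylglycerol, by 6.17 ± 0.60 and 5.37 ± 0.51, Fitm1, which helps droplets form, by 4.05 ± 0.20, and Plin2, the common droplet coat protein, by 1.118 ± 0.11. Mogat1 rested on 6 wild-type reads, all in replicate 1, and without that library its log2 fold change was 10.46. Cidec was at 3.17, 2.21 and 2.54 CPM in wild-type replicates 1 to 3 and at 17.6, 20.4 and 91.0 CPM in knockout replicates 1 to 3. Cidec, which fuses droplets, thus rose in all knockout libraries, by 4.02 ± 0.68, but replicate 3 lay far above replicates 1 and 2, and without it the log2 fold change was 2.85. Fabp2 (-2.02) and Lipg (-0.67) were lowered. Pparg, a known activator of Cd36, Cidec and Mogat1, rose by 2.02 ± 0.12.

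**Figure D3:**
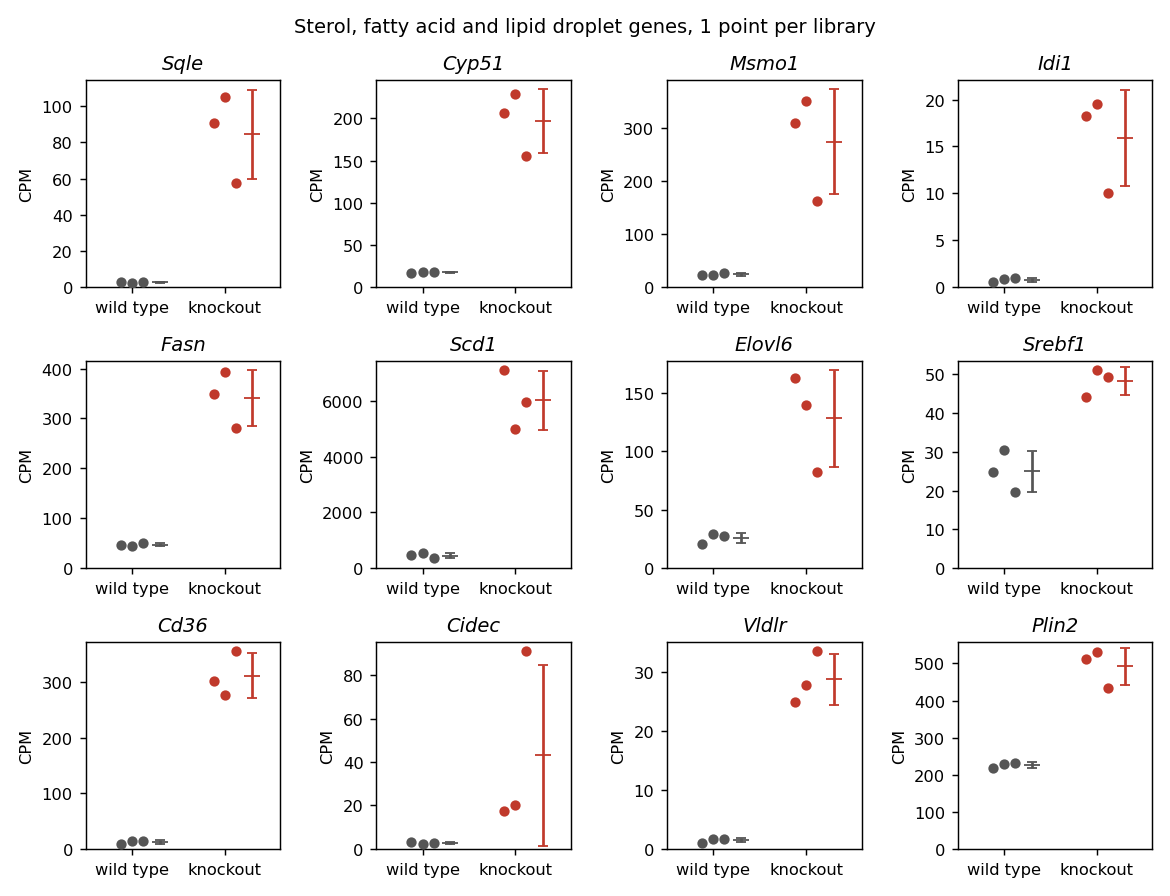
CPM (y axes, each from 0) of 12 sterol, fatty acid and lipid droplet genes in the 3 wild-type and 3 knockout libraries, with 1 point per library and the mean ± SD beside them. No knockout point reaches down to the wild-type points in any panel, and for Cidec knockout replicate 3 lies at 91.0 against 17.6 and 20.4 in replicates 1 and 2.

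Fatty acid oxidation did not share this pattern. Of 30 tested genes, 7 were raised and 4 lowered, at a median of -0.04. Acot3, a peroxisomal thioesterase, rose by 2.24 ± 0.28 and Pdk4, which spares pyruvate, by 1.41 ± 0.16, though Pdk4 lost its call in the fit of all 26 libraries (adjusted p = 0.0609). Cpt2 (-0.55 ± 0.10) and Acadvl (-0.70 ± 0.13), which act on long chains inside mitochondria, fell. Cpt1a, the gate for mitochondrial oxidation, was at -0.27 ± 0.14 with overlapping groups (adjusted p = 0.146). Without knockout replicate 3 the fall in Cpt1a passed the test (adjusted p = 0.00492) and 10 genes of the list were lowered. The count was 2 without wild-type replicate 1, wild-type replicate 3, knockout replicate 1 or knockout replicate 2. Ppara, the nuclear receptor over this list, fell by 0.98 ± 0.21.

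Glucose genes moved both ways. The list had 13 raised and 9 lowered members of 36 (median 0.06). Hk2, a hexokinase low in normal liver, rose by 3.62 ± 0.26. Pklr, the liver pyruvate kinase counted with the fatty acid synthesis list, rose by 1.35 ± 0.12, while Pfkfb3, which makes an activator of glycolysis, fell by 1.77 ± 0.14 and Ldha, lactate dehydrogenase, by 0.69 ± 0.11. Pck1 was at 5401, 4848 and 6646 CPM in wild-type replicates 1 to 3 and at 1385, 1344 and 1670 CPM in knockout replicates 1 to 3. Pck1, the gluconeogenic gatekeeper, thus fell by 1.94 ± 0.16, and G6pc, which releases free glucose, by 1.47 ± 0.32. G6pc was at 493, 340.3 and 427 CPM in wild-type replicates 1 to 3 and at 84.8, 135 and 235 CPM in knockout replicates 1 to 3. The G6pc values of the knockout were spread from 84.8 to 235 CPM and stayed below all wild-type values. Genes that steer glycogen moved both ways, with Ppp1r3c at -2.51 ± 0.24, Ppp1r3b at -1.55 ± 0.13 and Ppp1r3g at 1.93 ± 0.43, which lost its call in the fit of all 26 libraries (adjusted p = 0.336). The pentose phosphate enzymes Pgd (1.68 ± 0.12), G6pdx (0.87 ± 0.26) and Tkt (0.87 ± 0.11) rose.

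Amino acid breakdown was lower. Of 38 genes of the urea cycle and amino acid breakdown, 19 were lowered and 3 raised, with a median log2 fold change of -0.47. Hal, which opens histidine breakdown, was at 482 to 603 CPM in wild type against 111 to 128 CPM in the knockout (-2.17 ± 0.12, adjusted p = 4.65e-06). Sdsl, a serine dehydratase relative, fell by 1.68 ± 0.17, Gls2, the liver glutaminase, by 1.32 ± 0.11, and Tdo2, which opens tryptophan breakdown, by 1.13 ± 0.17. The urea cycle enzymes Cps1 (-0.42 ± 0.19) and Arg1 (-0.41 ± 0.23) had overlapping groups and did not pass the test, and Ass1 fell by 0.81 ± 0.15. Raised members were Oat (0.93), Gpt2 (0.65) and Bhmt (0.63). Tat was at 4316, 3327 and 5517 CPM in wild-type replicates 1 to 3 and at 1027, 1071 and 3233 CPM in knockout replicates 1 to 3. Tyrosine aminotransferase fell by 1.30 ± 0.43 (adjusted p = 0.0375), with knockout replicate 3 near the lowest wild-type value. Without that library the log2 fold change was -2.06, and without any of the other 5 libraries the call was lost (adjusted p of up to 0.11).

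Among 25 apolipoprotein and lipoprotein genes, 12 were lowered and 4 raised (median -0.32). Saa4, an apolipoprotein of HDL, fell by 1.28 ± 0.16, Angptl4, an inhibitor of lipoprotein lipase, by 1.23 ± 0.25, Apoa5 by 0.84 ± 0.28, Lipc, the hepatic lipase, by 0.82 ± 0.22 and Apob, the core of VLDL, by 0.62 ± 0.12. The sterol exporter Abcg1 rose by 1.49 ± 0.22. The lowered count was 5 without wild-type replicate 1, 6 without wild-type replicate 3 or knockout replicate 1, and 7 without knockout replicate 2. Of 29 nuclear genes of mitochondrial respiration, 9 were lowered and none raised, at a median of -0.23. Atp5o, of the ATP synthase, was at -0.47 ± 0.10 and Cyc1, of complex III, at -0.47 ± 0.11. That count was 3 without wild-type replicate 1 or 3, 2 without knockout replicate 1, 4 without knockout replicate 2 and 15 without knockout replicate 3.

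Genes that differ between male and female mouse liver moved strongly. Of 34 tested genes of the growth hormone axis and sex-biased expression, 10 were raised and 18 lowered. Growth hormone pulses through STAT5 are known to keep the male pattern, and the list holds several cytochrome and drug metabolism genes not described here. Elovl3 was at 148, 137 and 168 CPM in wild-type replicates 1 to 3 and at 0.137, 0 and 0.647 CPM in knockout replicates 1 to 3. Elovl3 was thus near 0 in the knockout at a log2 fold change of -9.10 ± 0.41 (adjusted p = 1.68e-06), as were Slco1a1 and Hsd3b5. Hsd3b5, a male-biased steroid dehydrogenase, had 413 reads in wild type and 2 in the knockout, a level 269.8 times lower with a counting interval of 74.2 to 2235 at 95% (adjusted p = 0.000302). Susd4 fell by 1.86 ± 0.31 and the protease inhibitor Serpina3k by 2.51 ± 0.15. Female-biased members outside drug metabolism included A1bg, with 2 reads in wild type and 46 in the knockout (17.6 times higher, counting interval 4.60 to 149.7), and the prolactin receptor Prlr (0.79 ± 0.15).

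The axis itself was lower in parts. Igf1 was at 553, 471 and 455 CPM in wild-type replicates 1 to 3 and at 207, 168 and 229.5 CPM in knockout replicates 1 to 3. Igf1, the growth factor that the liver makes in response to growth hormone, fell by 1.29 ± 0.14 with no overlap, and Igfals, which carries it in blood, by 1.38 ± 0.24. Bcl6, a repressor that helps to hold the male pattern, fell by 2.39 ± 0.40, Stat5b by 0.45 ± 0.11 and the receptor Ghr by 0.36 ± 0.11, while the STAT5 target Cish rose by 1.58 ± 0.26 and Socs2 (0.53 ± 0.34) did not pass the test. Levels of Xist and Ddx3y overlapped between the groups, as given above. For 16 of 34 genes every knockout library lay below all 10 control libraries of the other experiments (11.8% of all tested genes), and for 7 every knockout library lay above them (15.4% of all). Hsd3b5 was low in the wild type of this comparison too, at 2.76 to 13.8 CPM when scaled over all libraries, against 129 to 287 CPM in the 10 other control libraries.

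Liver transcription factors had 4 raised and 8 lowered members of 29. Hnf4a, the master regulator of the hepatocyte, fell by 0.78 ± 0.13, from 957 to 1107 CPM in wild type to 547 to 713 CPM in the knockout. Cebpb, a regulator of gluconeogenic and acute phase genes, fell by 1.5 ± 0.22. Sox9, a regulator of bile duct and injured liver cells, rose by 1.38 ± 0.28, a call lost in the fit of all 26 libraries (adjusted p = 0.0654). Foxa2 (-0.04), Cebpa (-0.39) and Rxra (-0.12), FXR's partner, did not pass the test.

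Genes of protein folding in the endoplasmic reticulum were lower. Of 30 genes of the unfolded protein and amino acid stress list, 17 were lowered and 5 raised (median -0.39). Herpud1 was at 806, 822 and 877 CPM in wild-type replicates 1 to 3 and at 145, 124 and 279 CPM in knockout replicates 1 to 3. Herpud1, which serves the degradation of misfolded proteins, fell by 2.19 ± 0.28, Sdf2l1, a cochaperone, by 2.18 ± 0.15, Calr, a calcium-binding chaperone, by 1.18 ± 0.12, and Hspa5, the main chaperone of the compartment, by 0.78 ± 0.10. The raised members belong to the amino acid response rather than to folding, except Dnajb9 (0.53) and Vldlr. Asns, asparagine synthetase, rose by 2.86 ± 0.30, Psat1, of serine synthesis, by 1.96 ± 0.50, and Slc7a11, the cystine importer, had no reads in wild type and 1.43 ± 0.85 CPM (SD, n = 3) in knockout livers, at least 8.09-fold higher with 3 counts per library as the floor. Other genes of that response fell, with Ddit4 at -1.56 ± 0.52, Atf5 at -1.18 ± 0.11 and Trib3 at -0.69 ± 0.14. Ddit3 (0.46 ± 0.20) and Atf4 (-0.03), transcription factors of the same response, did not pass the test.

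The oxidative stress list had 12 raised and 3 lowered members of 26. Hmox1 was at 17.8, 19.7 and 29.7 CPM in wild-type replicates 1 to 3 and at 246, 175 and 103 CPM in knockout replicates 1 to 3. Heme oxygenase rose by 2.96 ± 0.32, and knockout replicate 3 was the lowest of its group. The metallothioneins Mt1 (1.98 ± 0.30) and Mt2 (2.19 ± 0.28) and the selenoenzymes Gpx3 (2.21 ± 0.22) and Gpx4 (1.20 ± 0.13) rose, and the ferritin chains Fth1 and Ftl1 by 0.74 and 0.52. Nqo1, a classical NRF2 target, rose by 0.73 ± 0.16 and Srxn1, another, by 0.81 ± 0.15, while Gclm fell by 0.33 ± 0.09, and Gclc (0.00) and Txnrd1 (0.04) did not pass the test. Gpx1 (-0.40) and catalase, Cat (-0.62), were lowered.

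Targets of p53 rose. Of 25 tested genes, 15 were raised and none lowered, with a median log2 fold change of 0.99, although Trp53 itself was at -0.19 and Mdm2 at 0.09, neither called. Eda2r was at 0.215, 0.127 and 0.181 CPM in wild-type replicates 1 to 3 and at 7.55, 7.43 and 3.45 CPM in knockout replicates 1 to 3. Eda2r, a death-domain receptor of the TNF receptor family, had groups far apart (5.07 ± 0.46), as did Tnfrsf10b, the TRAIL receptor (4.31 ± 0.41). Cdkn1a, the cell cycle inhibitor p21, rose by 1.48 ± 0.17, Gdf15, a secreted stress factor, by 1.90 ± 0.29, Phlda3 by 2.52 ± 0.40 and Btg2 by 2.46 ± 0.17. For 9 of 25 tested genes the knockout libraries lay above all 10 other controls, against 15.4% of all tested genes. In a fit of all 26 libraries that shares a single estimate of spread, the calls of Cdkn1a, Gdf15 and Btg2 were lost.

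Complement and coagulation genes were lowered more often than raised. Of 40 tested genes, 19 were lowered and 1 raised (median -0.27). C9 was at 697, 781 and 700.2 CPM in wild-type replicates 1 to 3 and at 124, 134 and 25.5 CPM in knockout replicates 1 to 3. C9, the pore-forming component, fell by 2.94 ± 0.51, with knockout replicate 3 far below replicates 1 and 2. Other parts of the membrane attack complex fell too, with C6 at -2.65 ± 0.25, C8a at -1.77 ± 0.27, C8b at -1.69 ± 0.13 and Hc, the mouse C5, at -0.83 ± 0.10. C3, the hub of complement, was at -0.17 ± 0.12 and was not called. The clotting inhibitor Serpinc1, antithrombin, fell by 0.74 ± 0.11, and Pros1, protein S, was the raised member (0.48). For 16 of the 40 the knockout libraries lay below all 10 other controls, against 11.8% of all tested genes.

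Acute phase genes split, with 10 of 34 raised and 11 lowered. All 5 tested paralogues of alpha-1 antitrypsin were lowered. Serpina1e was at 9216, 9043 and 10820 CPM in wild-type replicates 1 to 3 and at 206, 204 and 223 CPM in knockout replicates 1 to 3. Serpina1e, at chr12:103946931-103958975, fell by 5.52 ± 0.15, Serpina1c by 3.84 ± 0.19, Serpina1d by 2.08 ± 0.12, Serpina1a by 1.77 ± 0.11 and Serpina1b by 1.44 ± 0.11. These paralogues are nearly identical, so the authors' counting could have moved reads between them. Among the raised genes were the orosomucoids Orm2 (3.69 ± 0.37) and Orm3 (3.55 ± 0.32), Lcn2, an iron-binding neutrophil protein (1.77 ± 0.14), and Apcs, serum amyloid P (2.03 ± 0.15). The call of Lcn2 was lost in the fit of all 26 libraries (adjusted p = 0.145). Saa1 was at 211, 111 and 1097 CPM in wild-type replicates 1 to 3 and at 201, 188 and 122 CPM in knockout replicates 1 to 3. Serum amyloid A1 had no direction that held, since wild-type replicate 3 was at 1097 CPM, and the log2 fold change went from -1.48 to 0.07 without that library. Its fall passed the test without wild-type replicate 2 (adjusted p = 0.0374). Haptoglobin, Hp, was at -0.46 ± 0.14, a fall that lost its call without wild-type replicate 1 or 3 or knockout replicate 1 or 2 (adjusted p between 0.0553 and 0.0938).

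Most matrix and stellate cell genes rose. Of 35 tested genes, 27 were raised and 2 lowered, with a median log2 fold change of 1.37. Col1a1 was at 4.03, 6.07 and 2.42 CPM in wild-type replicates 1 to 3 and at 25.6, 23.3 and 16.5 CPM in knockout replicates 1 to 3. Collagen I, at chr11:94936224-94953042, is the main collagen of scar, and its groups did not overlap (2.39 ± 0.29, adjusted p = 0.000371). Col3a1 rose by 2.00 ± 0.28, Col4a1, of basement membrane, by 1.78 ± 0.14, Acta2, the smooth muscle actin of activated stellate cells, by 1.94 ± 0.42, and Thbs1, an activator of TGF-beta, by 3.42 ± 0.23. Timp1, an inhibitor of matrix proteases, had 3 reads in wild type and 95 in the knockout (24.2 times higher, counting interval 8.045 to 119.6), and the collagenase Mmp13 had 3 and 129 (32.9 times, 11.01 to 161.7). The lowered members were Fn1 (-0.59), a matrix glycoprotein that hepatocytes also secrete, and Ecm1 (-1.001).

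Stellate cell markers unrelated to collagen were less uniform. Lrat, which stores retinol, rose by 1.02 ± 0.22 and Pdgfrb by 1.498 ± 0.22, while Des (0.29 ± 0.20) and Reln (0.29 ± 0.17) did not pass the test. In whole liver, more cells of a type and more RNA per cell cannot be told apart. Every knockout library lay above all 10 other controls for 24 of 35 genes, against 15.4% of all tested genes. Every wild-type library lay below them for none, against 6.29%. These controls include chow-fed hepatocytes, at 117.7 to 125.8 CPM summed over the list without Fn1. Wild-type whole liver could hardly lie below them, so nothing is read from the absence of such genes. Fn1 holds most of the summed level of the list. With it the list summed to 2024 to 2160 CPM in the knockout and 2103 to 2415 CPM in wild type, scaled over all 26 libraries, with no rise in the sum, and to 2825 to 2869 CPM in chow-fed hepatocytes. The plot across the series leaves Fn1 out, a choice made after its values were seen. Without it the other 34 genes summed to 959.1 to 1105 CPM in the knockout, 506.6 to 773.9 CPM in wild type and 117.7 to 829.0 CPM in the other libraries.

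Bile duct markers had 9 raised and 1 lowered of 16 tested (median 1.23), with 4 more at too few reads. Sox9 was at 1.38 ± 0.28, Epcam, an adhesion molecule of duct cells, at 1.53 ± 0.25, Krt23 at 1.97 ± 0.43 and Spp1, osteopontin, at 1.68 ± 0.30. Cldn4, a tight junction protein, had no reads in wild type and 0.77 ± 0.14 CPM (SD, n = 3) in knockout livers, at least 4.34-fold higher with 3 counts per library as the floor. The duct keratin Krt19 was low in both groups, at 0.242 to 0.805 CPM in wild type against 1.16 to 1.58 CPM in the knockout, and its call (1.22 ± 0.40, adjusted p = 0.0378) was lost without any library but knockout replicate 3 (adjusted p between 0.0524 and 0.102). Krt7 (1.24) and Pkhd1 (0.06) did not pass the test.

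Macrophage genes were raised more often than lowered. Of 21 tested, 10 were raised and 1 lowered (median 0.73). Trem2 was at 0.0537, 0.190 and 0 CPM in wild-type replicates 1 to 3 and at 4.99, 5.53 and 4.44 CPM in knockout replicates 1 to 3. Gpnmb was at 0.215, 0.253 and 0.302 CPM in wild-type replicates 1 to 3 and at 10.2, 10.2 and 13.5 CPM in knockout replicates 1 to 3. Trem2 and Gpnmb, known from lipid-laden and scar-associated macrophages, were near 0 in wild type and rose by 5.88 ± 0.47 and 5.43 ± 0.26, and Mmp12, a macrophage elastase, rose by 6.16 ± 0.73. Recruited monocyte markers Cx3cr1 (3.32 ± 0.41) and Ccr2 (1.90 ± 0.46) rose. Resident Kupffer cell markers were mixed, with Vsig4 raised (1.001), Clec4f (0.81) and Timd4 (-0.61) not called and Marco, a scavenger receptor, lowered (-1.71 ± 0.57) although its groups overlapped. Adgre1 was at 9.56, 8.23 and 21.9 CPM in wild-type replicates 1 to 3 and at 27.6, 14.9 and 11.4 CPM in knockout replicates 1 to 3. Adgre1, the F4/80 antigen, had overlapping groups (0.44 ± 0.41), and wild-type replicate 3 and knockout replicate 1 were the high libraries.

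Chemokines and inflammatory signals had 14 of 18 tested genes raised and none lowered, at a median of 1.35, with 7 more at too few reads. Ccl2 was at 0.0537, 0.253 and 0.121 CPM in wild-type replicates 1 to 3 and at 6.95, 5.90 and 1.94 CPM in knockout replicates 1 to 3. Cxcl1 was at 0.644, 0.949 and 0.302 CPM in wild-type replicates 1 to 3 and at 18.1, 14.7 and 5.35 CPM in knockout replicates 1 to 3. In these genes, which draw monocytes and neutrophils, knockout replicates 1 and 2 lay well above replicate 3, which still exceeded all wild-type values. Ccl2 rose by 5.09 ± 0.68, Cxcl1 by 4.32 ± 0.54, Cxcl9 by 3.00 ± 0.39 and Tnfaip3, a brake on NF-kappaB, by 2.10 ± 0.39. The count fell to 9 without knockout replicate 1. The lymphocyte and granulocyte list had 6 raised and 2 lowered members of 12 tested, with 10 at too few reads. Its neutrophil gene S100a8 rose by 5.07 ± 0.50, and the antigen presentation genes Cd74, H2-Aa and H2-Ab1 by 1.64, 2.04 and 1.98. The antibody genes Igkc (-0.87) and Jchain (-1.25) fell, and the pan-leukocyte gene Ptprc overlapped (0.75 ± 0.33) and passed the test without knockout replicate 3 (adjusted p = 0.0115).

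**Figure D4:**
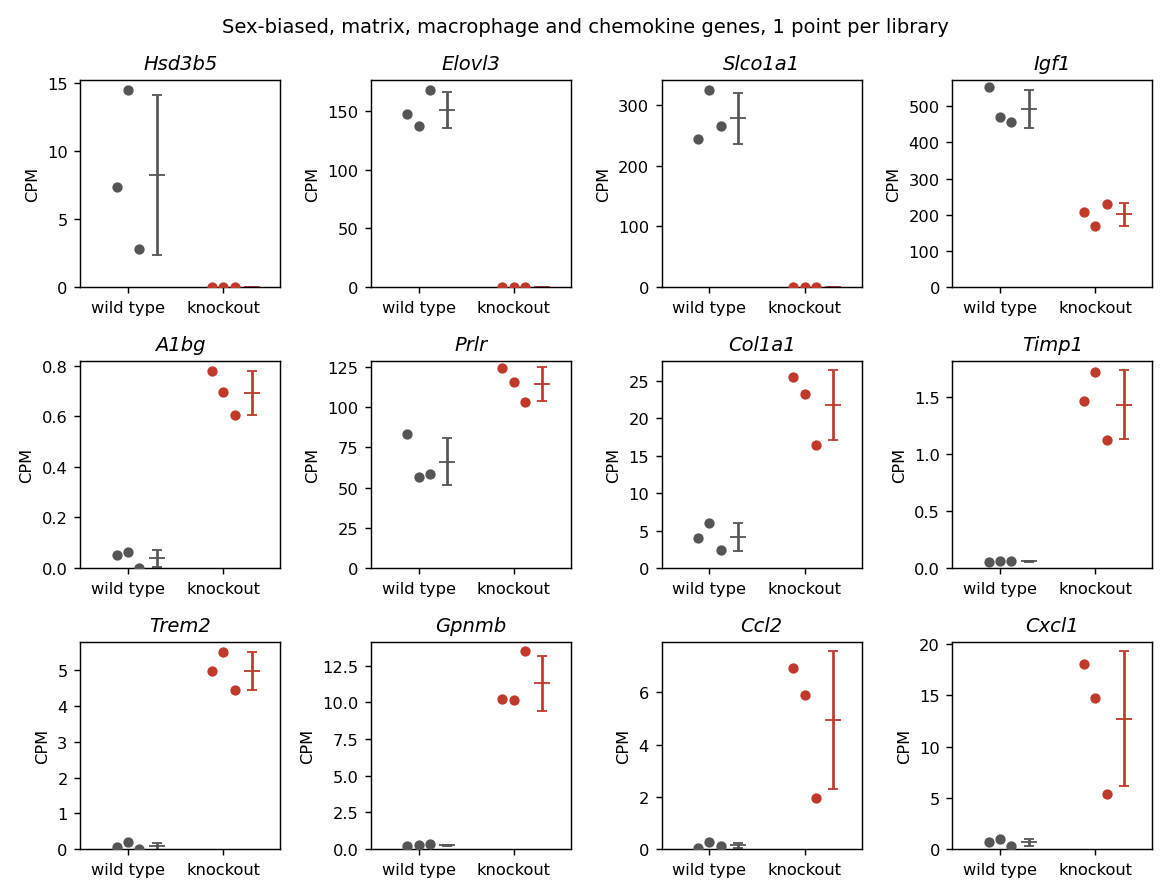
CPM (y axes, each from 0) of 12 sex-biased, matrix, macrophage and chemokine genes in the 3 wild-type and 3 knockout libraries, with 1 point per library and the mean ± SD beside them. Hsd3b5, Elovl3 and Slco1a1 are near 0 in the knockout, and Ccl2 and Cxcl1 are lower in knockout replicate 3 than in replicates 1 and 2.

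Interferon response genes depended on knockout replicate 3. Over all libraries 9 of 26 were raised and 1 lowered, and without it 21 were raised. Leaving out any of the other 5 libraries gave 4 raised genes, or 5 for wild-type replicate 2. Isg15 was at 2.25, 1.90 and 3.38 CPM in wild-type replicates 1 to 3 and at 10.7, 9.20 and 0.862 CPM in knockout replicates 1 to 3. In Isg15, a ubiquitin-like interferon-induced protein, replicates 1 and 2 of the knockout were high and replicate 3 was below wild type (1.45 ± 0.70, adjusted p = 0.131, and 0.000174 without it). Rsad2, an antiviral enzyme, rose by 2.92 ± 0.39, Cxcl10 by 4.25 ± 0.64, Ifit2 by 2.16 ± 0.30 and Usp18 by 1.64 ± 0.25 in all 3 knockout libraries. The immunoproteasome subunit Psmb8 was lowered (-0.96).

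Fewer endothelial markers changed. Of 22, 7 were raised and none lowered (median 0.43), among them the scavenger receptors Stab1 (0.71 ± 0.15) and Stab2 (0.76 ± 0.16). The call of Emcn (0.76 ± 0.25), a surface sialomucin, was lost without any library but wild-type replicate 3 (adjusted p between 0.0626 and 0.135). The count was 3 without wild-type replicate 1 or knockout replicate 1 and 4 without wild-type replicate 2. Red cell genes gave 1 lowered of 5, Alas2 (-1.42 ± 0.24), with haemoglobin genes not called. Hepatocyte identity genes had 6 of 15 lowered and none raised (median -0.42). Periportal genes had 10 of 22 lowered and 1 raised (median -0.48), led by Pigr, the antibody transporter, which was at 1336 to 1437 CPM in wild type against 58.7 to 147 CPM in the knockout (-3.77 ± 0.30), and Etnppl (-2.03 ± 0.15). Without knockout replicate 3, 4 periportal genes were raised and 15 lowered (median -0.66). Pericentral genes had 6 raised and 5 lowered of 22, with Glul, the glutamine synthetase of the central vein rim, at -0.34 ± 0.21 and not called.

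Genes of fetal liver and liver tumours had 13 of 18 tested members raised and 2 lowered (median 1.77), with 8 more at too few reads. Afp was at 0.591, 0.696 and 0.604 CPM in wild-type replicates 1 to 3 and at 3.29, 2.37 and 7.59 CPM in knockout replicates 1 to 3. Igf2bp3 was at 0.269, 0.696 and 0.302 CPM in wild-type replicates 1 to 3 and at 9.74, 12.1 and 7.29 CPM in knockout replicates 1 to 3. Alpha-fetoprotein, Afp, rose by 2.81 ± 0.49 from a low level, with knockout replicate 3 the highest, and Igf2bp3, a fetal RNA-binding protein, rose by 4.53 ± 0.35. Ly6d rose by 6.69 ± 0.61, Robo1 by 3.06 ± 0.14, Cd24a by 1.84 ± 0.27 and Sox4 by 1.92 ± 0.34. Gpc3, a marker of liver cancer, had overlapping groups (1.10 ± 0.73), Gpc1 (-2.38) and Tff3 (-1.602) were lowered, and H19, Igf2 and Dlk1 had too few reads to be tested. In 10 of the 18 the knockout libraries lay above all 10 other controls, against 15.4% of all tested genes.

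Mitosis and replication genes gave unlike counts. Of 23 tested mitosis genes 19 were raised and none lowered (median 2.12), while of 28 replication genes 8 were raised and 4 lowered (median -0.02). Another 9 mitosis genes and 2 replication genes had too few reads to be tested. Mitosis genes low in wild type could enter the test through knockout reads alone, so the 2 lists are not on an equal footing. The mitosis list was raised at low levels, summing to 14.49 to 14.99 CPM in wild type against 38.4 to 41.5 CPM in the knockout. Mki67 was at 0.698, 1.08 and 0.604 CPM in wild-type replicates 1 to 3 and at 3.11, 2.69 and 3.15 CPM in knockout replicates 1 to 3. Mki67, the proliferation antigen, Cdc20, an activator of the anaphase-promoting complex, and Top2a, which untangles chromosomes, were at 1.91 ± 0.27, 2.78 ± 0.49 and 2.15 ± 0.39. Among the subunits of the replicative helicase, Mcm2 rose by 1.88 ± 0.22, Mcm5 by 1.32 ± 0.32 and Mcm3, Mcm4 and Mcm6 by 0.88, 0.61 and 0.87, and Mcm7 fell by 0.66 ± 0.12, while Pcna, the polymerase clamp, was at -0.17 ± 0.11 and not called. Mcm10 was at 44.1, 39.4 and 42.8 CPM in wild-type replicates 1 to 3 and at 3.48, 5.25 and 3.79 CPM in knockout replicates 1 to 3. Mcm10, a helicase activator, went the other way (-3.33 ± 0.15), and Tk1, thymidine kinase, fell by 1.01 ± 0.18. Cyclins and their regulators had 11 raised and 1 lowered of 24, with Ccnd1, the cyclin of cell cycle entry, at 3.28 ± 0.26, Ccne1 at 1.89 ± 0.34, E2f1 at 1.51 ± 0.19 and Myc at 1.495 ± 0.18. The calls of Mki67 and Cdk1 were lost in the fit of all 26 libraries.

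Mitotic genes are known to carry a short element, TTTGAA or TTCAAA on the other strand, near their start. These letters were found in 13 of 27 mitosis promoters in the RefSeq table and in 4934 of all 27025 (18.3%), over the 250 bases before the start. The sequences of the 3 raised members with the largest log2 fold changes among those with a single promoter in the table and a match in it are shown, with 250 bases before the start, 5′ to 3′ on the gene's strand (GRCm38.p6) and each match in capitals. Cdc20 lies at chr4:118437344-118437593, Top2a at chr11:99024190-99024439 and Mki67 at chr7:135716380-135716629, all on the minus strand:
Cdc20: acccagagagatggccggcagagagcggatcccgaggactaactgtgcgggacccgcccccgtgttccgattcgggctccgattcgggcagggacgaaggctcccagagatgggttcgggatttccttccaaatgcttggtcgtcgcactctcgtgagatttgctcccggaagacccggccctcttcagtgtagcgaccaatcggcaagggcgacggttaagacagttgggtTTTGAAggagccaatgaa
Top2a: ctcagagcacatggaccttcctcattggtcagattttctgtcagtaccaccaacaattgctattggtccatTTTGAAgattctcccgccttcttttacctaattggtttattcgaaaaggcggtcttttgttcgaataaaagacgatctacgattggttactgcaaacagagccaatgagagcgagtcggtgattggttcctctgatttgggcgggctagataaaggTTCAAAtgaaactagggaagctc
Mki67: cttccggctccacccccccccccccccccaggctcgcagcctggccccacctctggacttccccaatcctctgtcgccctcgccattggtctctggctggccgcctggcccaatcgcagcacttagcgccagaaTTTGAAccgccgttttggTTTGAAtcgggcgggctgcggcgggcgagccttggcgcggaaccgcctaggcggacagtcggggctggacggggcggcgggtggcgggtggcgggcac
The match nearest to the start begins 18 bases before it in Cdc20, 23 in Top2a and 98 in Mki67, and Top2a and Mki67 hold another farther up.

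The mitosis and replication changes were set beside those of regenerating liver. For this, the knockout effect minus the hepatectomy effect was tested gene by gene, each against its own control. Of 14755 genes tested, 4645 differed (31.5%), with 2279 higher (15.4%) and 2366 lower (16%) in the knockout effect. The mitosis effect was smaller in the knockout for 22 of 23 genes and the replication effect for 27 of 28, and none was larger. Hepatectomy raised all 23 mitosis genes and 27 of 28 replication genes, at median log2 fold changes of 5.42 and 3.58, against 16.4% of 13753 genes raised by hepatectomy and 30.7% called in either direction. Mki67 was at 1.88 ± 0.67 CPM (SD, n = 3) in sham and 88.1 ± 23.95 CPM after hepatectomy, and its log2 difference between effects was -3.63 ± 0.48 (adjusted p = 0.000113). Ccnd1 differed the other way, at 2.01 ± 0.53 (adjusted p = 0.0109), with a mean of 86.2 CPM in sham against 4.84 CPM in wild type.

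Several other lists had members with a higher knockout effect. It was higher for 19 of 25 cholesterol genes, 16 of 22 fatty acid synthesis genes, 14 of 25 lipid droplet genes and 16 of 35 matrix genes, and lower for 0, 1, 1 and 0. Other metabolic lists were divided, with 5 higher and 7 lower for the urea cycle and amino acid breakdown, 8 and 5 for apolipoproteins, 2 and 1 for mitochondrial respiration and 5 and 3 for bile acid synthesis. Hepatectomy lowered 14 of the 22 fatty acid synthesis genes, against 14.3% of all genes. Scd1 (5.63 ± 0.38) and Fasn (4.43 ± 0.34) fell after hepatectomy and rose in the knockout. The Fasn controls lay far apart, at 1364 to 1573 CPM in sham and 42.9 to 48.4 CPM in wild type, scaled over all 26 libraries. Fasn was at 281 to 643 CPM after hepatectomy and 266 to 373 CPM in the knockout. The fatty acid synthesis list summed to 8703 to 10650 CPM and 8033 to 9901 CPM there, so its higher knockout effect was not a higher summed level. Of the unfolded protein and amino acid stress list 16 of 30 genes were lower in the knockout effect, with 12 raised by hepatectomy. Strain, age and experiment differ between the compared pairs and cannot be told apart from the treatments.

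**Figure D5:**
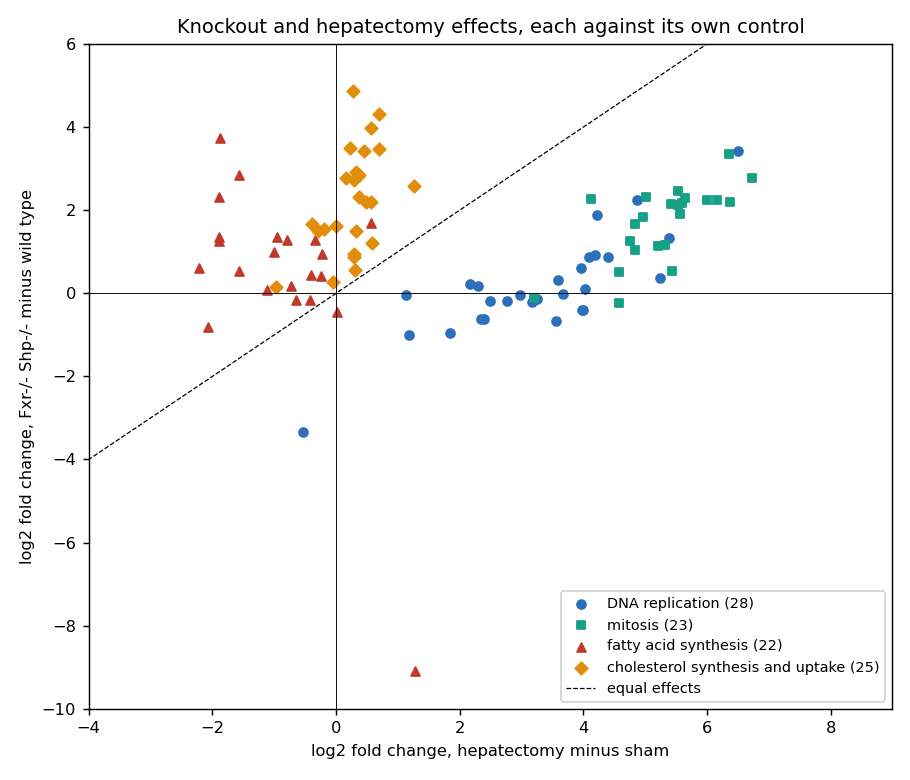
Log2 fold change, Fxr-/- Shp-/- minus wild type (y axis), against log2 fold change, hepatectomy minus sham (x axis), of the tested members of 4 lists, 1 point per gene, with the dashed line where both effects are equal. Mitosis and replication genes lie mostly to the right and below the line, and cholesterol and fatty acid synthesis genes lie mostly above it.

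Genes of growth signals, YAP targets, iron and the clock moved both ways. Immediate early and growth factor genes had 10 raised and 5 lowered of 27. Atf3, a stress-induced transcription factor, rose by 3.19 ± 0.25, Klf6 by 2.54 ± 0.09 and Fos by 2.75 ± 0.25, while Igfbp2, an IGF carrier, fell by 2.36 ± 0.21 and Egfr, the EGF receptor, by 1.64 ± 0.09. Atf3 and Fos lost their calls in the fit of all 26 libraries (adjusted p = 0.127 and 0.268). YAP and TEAD targets had 6 raised and 5 lowered of 19, and the defining targets Ccn1 (0.06 ± 0.17) and Ccn2 (0.41 ± 0.44) had overlapping groups. Ccn2 was at 22.7, 27.8 and 27.0 CPM in wild-type replicates 1 to 3 and at 19.4, 18.1 and 64.9 CPM in knockout replicates 1 to 3. Knockout replicate 3 alone was high in Ccn2, and without it the log2 fold change was -0.45. Leaving out wild-type replicate 1 gave 3 raised and 3 lowered genes of the YAP list, wild-type replicate 2 gave 2 lowered and knockout replicate 2 gave 3 lowered.

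Iron genes had 11 raised and 4 lowered of 23. Hamp2, a hepcidin paralogue, rose by 2.88 ± 0.32, Id1, a target of BMP signals, by 1.601 ± 0.32 and Hfe2, the BMP co-receptor hemojuvelin, by 1.26 ± 0.10. Hamp was at 378, 354 and 184 CPM in wild-type replicates 1 to 3 and at 529, 328 and 1079 CPM in knockout replicates 1 to 3. Hepcidin itself, Hamp, overlapped between groups at 1.08 ± 0.41, with knockout replicate 3 the highest and replicate 2 the lowest of its group, and passed the test without replicate 2 (adjusted p = 0.0213). The raised count was 7 without wild-type replicate 1 or knockout replicate 1. Circadian genes had 4 raised and 6 lowered of 22. Npas2, a partner of BMAL1, rose by 2.69 ± 0.33 and Arntl, BMAL1 itself, by 0.79 ± 0.16, while the clock-controlled Noct (-2.73 ± 0.40) and Usp2 (-2.17 ± 0.41) fell. In the fit of all 26 libraries the calls of Npas2 and Arntl were lost (adjusted p = 0.056 and 0.493). Knockout replicate 3 differed here, since without it 14 were lowered, and without wild-type replicate 2 it was 3. Dbp, a clock output gene, had overlapping groups (-0.33) and passed the test without knockout replicate 3, at a log2 fold change of -1.116 (adjusted p = 0.00311).

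The largest changes outside drug metabolism and urinary proteins were in genes of varied function. Sprr1a, a cornified envelope protein at chr3:92483952-92485895, had no wild-type reads and 242, 311 and 233 reads in the knockout, at least 66.9-fold higher with 3 counts per library as the floor. Bmp8b, a BMP ligand, also had no wild-type reads and 4.78 ± 1.31 CPM (SD, n = 3) in knockout livers, at least 26.95-fold higher. Serpina3c was at 0.269, 0.633 and 0.302 CPM in wild-type replicates 1 to 3 and at 74.5, 71.2 and 94.2 CPM in knockout replicates 1 to 3. Ctse was at 0.215, 0.0633 and 0.0604 CPM in wild-type replicates 1 to 3 and at 19.8, 23.8 and 23.5 CPM in knockout replicates 1 to 3. Serpina3c, a protease inhibitor, rose by 7.64 ± 0.24, and Ctse, an aspartic protease, by 7.50 ± 0.28, both with groups far apart. Sdcbp2 was carried by knockout replicate 3, with 533 reads against 85 and 103. Lrtm2, Insyn1, Igdcc4, Rims4 and Mab21l3 had 1 to 3 wild-type reads in all and 303 to 906 in the knockout.

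Falls by the same rule began with Slco1a1. Obp2a, a lipocalin, had no reads in the knockout and 7.81 ± 3.145 CPM (SD, n = 3) in wild type (at least 57.8-fold lower), and Moxd1 had none and 4.63 ± 4.69 CPM, most of it in wild-type replicate 1 (at least 34.2-fold lower). Slc13a5, the citrate importer, fell by 5.86 ± 0.61 and Selenbp2, a selenium-binding protein, by 5.68 ± 0.42. Its near-identical neighbour Selenbp1 rose by 0.65, and reads of such a pair can be counted to either. Lrit2 had 360 reads in wild type and 3 in the knockout. Ndufs5 was at 14.1, 10.9 and 16.98 CPM in wild-type replicates 1 to 3 and at 0.366, 0.0929 and 0.345 CPM in knockout replicates 1 to 3. Ndufs5, a complex I subunit of mitochondrial respiration that is not on the respiration list, fell by 5.66 ± 0.34 (adjusted p = 7.74e-06). Scaled over all libraries it was at 28.7 to 53.9 CPM in the other 20, above the 10.4 to 16.5 CPM of wild type.

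Rps3a1, a ribosomal protein gene at chr3:86137940-86142702 and another of the named falls, has near-identical copies elsewhere in the genome. Rps3a1 was at 101.7, 90.7 and 112 CPM in wild-type replicates 1 to 3 and at 0.457, 0.604 and 0.474 CPM in knockout replicates 1 to 3. Over the same libraries the copy Rps3a3 rose from 0.613 to 89.9 CPM, and the 3 genes Rps3a1, Rps3a2 and Rps3a3 summed to 103.9 ± 11.4 CPM in wild type against 90.5 ± 13.9 CPM in knockout livers (SD, n = 3). Scaled over all libraries, Rps3a3 was at 54.9 to 68.0 CPM in the C3H/HeN livers of the sham and hepatectomy groups and below 1 CPM in every C57BL/6J library outside the knockout. Whether the strain background of the knockout has a part in these values was not tested. Cd1d2, an antigen-presenting protein named after its values were seen, had no reads in wild type and 32.85 ± 3.26 CPM (SD, n = 3) in knockout livers. In the 6 libraries together, 443 tested genes lay over 5-fold above all other 20 libraries and 40 lay over 5-fold below, and 414 of the former are processed pseudogenes. Levels of genes with such copies are therefore uncertain here. Among them are many ribosomal protein genes, Gapdh, Pgk1 and the respiration genes Cox7c, Atp5l, Atp5g2 and Cycs.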

How the data were processed

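RNA-seq read counts per gene were analysed. Per the submitters' processing notes, which give no roles or order, the tools were bcl2fastq 2.17.1.14, Trimmomatic, STAR 2.4.2a, Picard 1.119 and HTSeq, with GRCm38 (mm10). The annotation release and the strand setting are not given in the sources used here. Values are whole-number counts as deposited by the authors, with 1 column per library. Lines that name no gene stayed out of library sizes: reads aligned to several places averaged 43.6% in wild type and 26.4% in the knockout, reads outside genes 3.43% and 4.35%, and reads in more than 1 gene 1.09% and 1.91%.

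Counts were filtered with filterByExpr (minimum count 10, minimum total 15), scaled by TMM and tested with edgeR 4.0.16's quasi-likelihood test (R 4.3.3) on the 6 libraries, without a replicate block, with Benjamini-Hochberg adjustment over all 13473 genes. The biological coefficient of variation was 14.4%, and 6692 genes had an unadjusted p under 0.05. The difference from hepatectomy was fitted over 12 libraries as an interaction. CPM ranges said to be scaled over all libraries come from a separate TMM scaling of the 26. Counting intervals (95%, exact) and floors of 3 counts cover counting error only.

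Tested on simulated data, the knockout fit recovered 72 of 98 genes seeded at a log2 change of 1 and 98 of 99 at 2, with 9 false calls among 13080 genes. The interaction recovered 47 of 100 and 80 of 99, with 9 false calls among 14208. Far fewer genes carried a change there than were called in the data (40.4% for the knockout and 31.5% for the difference). The numbers recovered and the false calls therefore do not carry over to the data.

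The 38 gene lists and the comparison itself were chosen with earlier results of these data known. Named genes were the 10 largest rises and falls, leaving out drug metabolism, major urinary protein and predicted genes and pseudogenes, the 4 largest called changes in each list (average log2 CPM of at least 1, groups not overlapping), and a list of anchor genes. Other list members were named after their values were seen, and some genes are counted in their lists but not reported here by name. Symbols were matched for 47224 of 47643 identifiers, and coordinates are from GENCODE M21. Alternatives were DESeq2 1.42.0's size factors and Wald test, other filters, a replicate block, leaving out each library, a fit of all 26 libraries, thinned libraries and a minimum change.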

Additional observations from a re-analysis of the deposited data

Results flagged for a closer look

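Of 200 named genes in the test of the knockout effect minus the hepatectomy effect, 137 differed (edgeR quasi-likelihood test, Benjamini-Hochberg adjustment), against 31.5% of all 14755 genes tested. Many of the named genes were chosen for the size of their knockout change, so nothing is read from that share. Of the 137, 28 were called in opposite directions in the knockout and after hepatectomy. The log2 difference between effects is given in brackets. Higher in the knockout effect were the fat and sugar genes Scd1 (5.63), Cidec (5.36), Fasn (4.43), Elovl6 (4.22), Acot3 (4.14), Pklr (3.26), Pltp (2.10) and Ppp1r3g (8.24). The immune, iron and growth genes Hamp2 (6.33), Thbs1 (6.05), Atf3 (5.66), Cxcl9 (4.60), H2-Aa (3.86), Cd74 (3.48), H2-Ab1 (3.32) and Myc (2.93), and the endothelial and transport genes Slco1a4 (1.72), Stab1 (1.498) and Bmp2 (1.44), were also higher. Lower in the knockout effect were Elovl3 (-10.36), Nr0b2 (-6.01), Sdf2l1 (-3.74), C9 (-3.40), Ung (-2.78), C8a (-2.28), Tk1 (-2.17), Ajuba (-2.14) and Hp (-2.08). Some of these knockout calls were not stable. Of 6 fits that left out 1 library, Bmp2 and Hp each lost the call in 4 and Ajuba in 1. In the fit of all 26 libraries Pltp, Ppp1r3g, Atf3 and Hp lost it. Nr0b2 is a deleted gene, so its difference checks the labels. The strains, ages and experiments of the compared pairs differ and cannot be told apart from the treatments.

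Reads that fall in more than 1 gene, which enter no test, took 1.91% of the knockout reads against 1.09% in wild type. Their part in the results was not tested.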

How the results depend on the processing

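The count of 5441 called genes was 5428 with DESeq2's size factors, 5155 with DESeq2's Wald test, 5727 with no filter, 5375 with a mean count of at least 10, 4803 in the fit of all 26 libraries and 5317 with thinned libraries. With an absolute log2 fold change of at least 1 in addition, by construction fewer genes passed: 2078, with 1490 raised and 588 lowered. Leaving out 1 library gave 3969 to 6024 called, 2102 to 3153 raised and 1867 to 2871 lowered. For the difference from hepatectomy these ranges were 3914 to 4619, 1909 to 2222 and 1987 to 2510. Same-numbered libraries of the groups did not deviate together (correlations of -0.17, -0.04 and -0.02), so the replicate numbers were not taken to pair samples. A replicate block gave 4763 called genes (2476 raised, 2287 lowered) for the knockout and 4391 for the difference (2164 higher, 2227 lower). Of 180 named genes that were called, 154 kept the call in each of these fits and 26 lost it in at least 1, among them 17 in the fit of all 26 libraries and 1, Emcn, with the block, and none reversed. Ccn2, not called, ranged from -0.45 (without knockout replicate 3) to 0.70 in log2 fold change over the fits that left out 1 library. The cause was not tested.

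Depth limits the low genes: in 16614444 to 22606249 gene reads, 3 reads per library were taken as the floor, and low genes such as Mki67, at 3.15 CPM or less, rest on few reads. More cells of a type and more RNA per cell cannot be told apart, and 3 libraries a group limit all tests.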

Other observations

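Set beside the controls of the other experiments, the outer group was not always the knockout. Every wild-type library lay below all 10 control libraries of the other experiments for 9 of 22 tested fatty acid synthesis genes and 8 of 26 interferon genes, against 6.29% of all tested genes. Every knockout library lay above them for 1 and 0, against 15.4%. For oxidative stress genes the knockout was the outer group, above all 10 for 9 of 26 and below for 4, against 15.4% and 11.8% of all tested genes. Cd36 was at 262.6 to 337 CPM in the knockout, 8.93 to 13.99 CPM in wild type and at most 67.9 CPM in the other controls, when scaled over all libraries. Among the treated groups it was at 121.9 to 226.1 CPM in hepatocytes of mice on the high fat diet. Cap2, an actin regulator named after its values were seen, had no wild-type reads and 2.07 ± 0.07 CPM (SD, n = 3) in the knockout.

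Rpl10, a ribosomal protein gene with near-identical copies, was at 4.53 to 4.90 CPM in wild type and 5.50 to 9.52 CPM in the knockout, against 265 to 601 CPM in the other 20 libraries. It is 1 of the 40 tested genes over 5-fold below all other libraries in both groups of this experiment.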
